A study of Mus musculus with 15 samples.

Results

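The cornified envelope genes described here are the members of the small proline-rich (Sprr) and late cornified envelope (Lce) families together with Lor, Flg2, Ivl, Krtdap, Hrnr, Crnn, Rptn, Tchh, Tgm1, Tgm3, Cdsn, Casp14 and Dsg1a. They were chosen by symbol, from every row whose name starts with Sprr or Lce and a digit and from 14 further genes named singly, of which Flg was not analysed here. That gave 48 members of 23420 gene rows: 15 Sprr genes, 20 Lce genes and 13 others. Bulk RNA had been sequenced from 15 melanoma grafts in female C57BL/6 mice, 3 libraries in each of 5 groups. Every mouse was 8 weeks old and received 1000000 cells in each flank, and the graft of the left flank was treated and taken on day 13. Parental tumors came from the mouse melanoma line D4M.3A.3 and UV2 tumors from D3UV2, a line in which UVB light had induced putative neoantigens, so each background rests on 1 cell line. Both lines had a group given isotype control antibody and a group given anti-PD-1, an antibody against a checkpoint receptor of T cells, on days 8, 10 and 12. The remaining group, of parental tumors, had triple therapy with imiquimod cream, which activates Toll-like receptor 7, on the same days and ablative fractional photothermolysis, a laser that removes fine columns of skin, on days 8 and 12. Its antibody is anti-PD-1 in the sample characteristics and isotype control in the treatment protocol, and this could not be settled. The protocol also names a lotion as the counterpart of imiquimod. The labels name no animal for a library, and p-values therefore measure only the spread between these samples.

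The cornified envelope is the protein shell that replaces the plasma membrane of keratinocytes as they die at the surface of the skin. Transglutaminases, mainly the products of Tgm1 and Tgm3, cross-link involucrin (Ivl), loricrin (Lor), the Sprr proteins and the Lce proteins into that shell, while proteins of the fused S100 type such as hornerin and repetin fill and reinforce it, and corneodesmosin (Cdsn) and desmoglein 1 (Dsg1a) hold the dead cells together. Loricrin and the Lce1 proteins are known as products of resting epidermis, whereas Sprr1 and Sprr2 genes and, in the Lce family, Lce3 genes are known to be switched on in wounded or inflamed epidermis.

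Of the 48 members, 42 lie on chromosome 3 between 92080271 and 93449077 (GRCm38), in the gene cluster known as the epidermal differentiation complex. The other 6 are Krtdap on chromosome 7, Tgm1 on 14, Tgm3 on 2, Cdsn on 17, Casp14 on 10 and Dsg1a on 18. The sequences shown here are those of 7 members whose levels differ most in kind below: Sprr1b and Sprr2d from the Sprr families, Ivl, Lor and Krtdap, and Lce1a1 and Lce3c from the Lce family. Each is the 200 bases before the start of the gene in RefSeq, read 5′ to 3′ on the gene's own strand. Capitals mark the sequence TGANTCA, the core recognised by AP-1 factors, and TATAAA, the exact letters searched here for a TATA box.
Sprr1b: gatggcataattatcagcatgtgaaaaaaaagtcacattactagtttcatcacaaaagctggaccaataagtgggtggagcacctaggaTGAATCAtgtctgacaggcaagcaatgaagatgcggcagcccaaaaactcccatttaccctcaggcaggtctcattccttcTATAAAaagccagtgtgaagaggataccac
Sprr2d: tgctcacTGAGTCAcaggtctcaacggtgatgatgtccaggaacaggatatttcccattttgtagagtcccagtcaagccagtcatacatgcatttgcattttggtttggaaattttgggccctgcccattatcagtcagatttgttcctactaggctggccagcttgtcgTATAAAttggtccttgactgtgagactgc
Ivl: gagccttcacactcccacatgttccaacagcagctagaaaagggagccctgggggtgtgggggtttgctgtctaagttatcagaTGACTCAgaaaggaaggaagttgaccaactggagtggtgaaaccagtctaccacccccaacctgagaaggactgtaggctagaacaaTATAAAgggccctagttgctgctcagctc
Lor: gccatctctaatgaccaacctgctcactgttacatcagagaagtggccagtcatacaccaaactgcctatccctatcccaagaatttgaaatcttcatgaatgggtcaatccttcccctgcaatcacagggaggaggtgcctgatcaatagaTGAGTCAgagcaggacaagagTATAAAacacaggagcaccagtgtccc
Krtdap: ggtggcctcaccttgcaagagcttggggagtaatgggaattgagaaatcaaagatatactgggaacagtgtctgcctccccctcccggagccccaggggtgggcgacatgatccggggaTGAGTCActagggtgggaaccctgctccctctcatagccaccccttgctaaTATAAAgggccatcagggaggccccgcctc
Lce1a1: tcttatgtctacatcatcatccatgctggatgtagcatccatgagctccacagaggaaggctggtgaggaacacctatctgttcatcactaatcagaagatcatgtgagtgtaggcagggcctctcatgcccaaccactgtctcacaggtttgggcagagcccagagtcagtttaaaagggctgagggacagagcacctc
Lce3c: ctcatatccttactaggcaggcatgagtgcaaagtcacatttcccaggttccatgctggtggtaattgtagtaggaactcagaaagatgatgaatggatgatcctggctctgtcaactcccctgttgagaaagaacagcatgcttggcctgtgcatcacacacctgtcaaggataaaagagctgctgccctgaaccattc
On GRCm38.p6 these stretches are chr3:92438780-92438979 on the minus strand for Sprr1b, chr3:92338940-92339139 on the plus strand for Sprr2d, chr3:92573736-92573935 on the minus strand for Ivl and chr3:92083143-92083342 on the minus strand for Lor. For Krtdap the stretch is chr7:30787705-30787904 on the plus strand, for Lce1a1 chr3:92648308-92648507 on the minus strand and for Lce3c chr3:92944286-92944485 on the plus strand. Sprr1b, Sprr2d, Ivl, Lor and Krtdap each hold 1 TGANTCA and a TATAAA. The Lce1a1 and Lce3c stretches hold neither of these exact sequences, and variants of them were not searched.

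Over the 250 bases before each start, searched on both strands, TGANTCA was found in 15 of 46 member windows (44 members, some with more than 1 start), against 6.7% of 32851 RefSeq promoters. The matches were unevenly spread over the families. They lay in 9 of 13 Sprr windows, in 6 of 14 windows of the members outside both families, and in 0 of 12 Lce1 and 0 of 6 Lce3 windows. TATAAA was present in 10 of 13 Sprr, 2 of 12 Lce1 and 1 of 6 Lce3 windows, against 12.4% of all promoters. Exact matches at any position were counted, and the Lce3 match, in Lce3e, began 243 bases before the start. A window without a match may still hold a variant of the TATA box. The remaining motifs searched were CCAAT (11 of 46 member windows, 33.8% of all promoters), GGGNGGG (9 of 46, 44.8%), GGAAGT (12 of 46, 19.7%) and AACNNGTT (1 of 46, 3.6%). Windows of neighbouring family members share ancestry and are not independent of each other, and a match is a description of letters only.

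Levels are given in TPM, an abundance corrected for transcript length and scaled to a total of 1000000 in each library, so a level is relative to all other transcripts of its library. The depth of the libraries is unknown, and between 12239 and 13993 genes reached 1 TPM per library. In 11 of the 15 libraries the 48 members together came to 3.92 to 15.5 TPM, with a median of 6.67. The other 4 libraries stood apart. Parental triple therapy replicates 1, 2 and 3 held 6737, 42.5 and 656 TPM of these transcripts, and UV2 anti-PD-1 replicate 3 held 355 TPM. The totals of the triple therapy libraries thus lay above those of every parental isotype tumor (5.29 to 7.11 TPM) and every parental anti-PD-1 tumor (6.67 to 15.5 TPM), but spread widely among themselves. In the UV2 tumors the totals were 3.92 to 6.29 TPM under isotype and 8.79, 12.5 and 355 TPM under anti-PD-1. In bulk tissue, fewer cells of a type and less RNA per cell cannot be told apart.

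Detection followed the same division. Triple therapy replicates 1 and 3 each had 47 of 48 members above 0 TPM, replicate 2 had 22 and UV2 anti-PD-1 replicate 3 had 32, against 4 to 12 (median 9) in the other 11 libraries. In those 11 libraries 29 members were listed at 0 throughout, and only Lce1g, Lce3a, Sprr1a, Cdsn and Tgm1 reached 1 TPM anywhere. Cdsn, Tgm1 and Sprr1a made up 74.8% to 96.3% of the members' total there (median 83.1%), so the remaining genes were at or near 0 in most of these tumors.

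**Figure D1:**
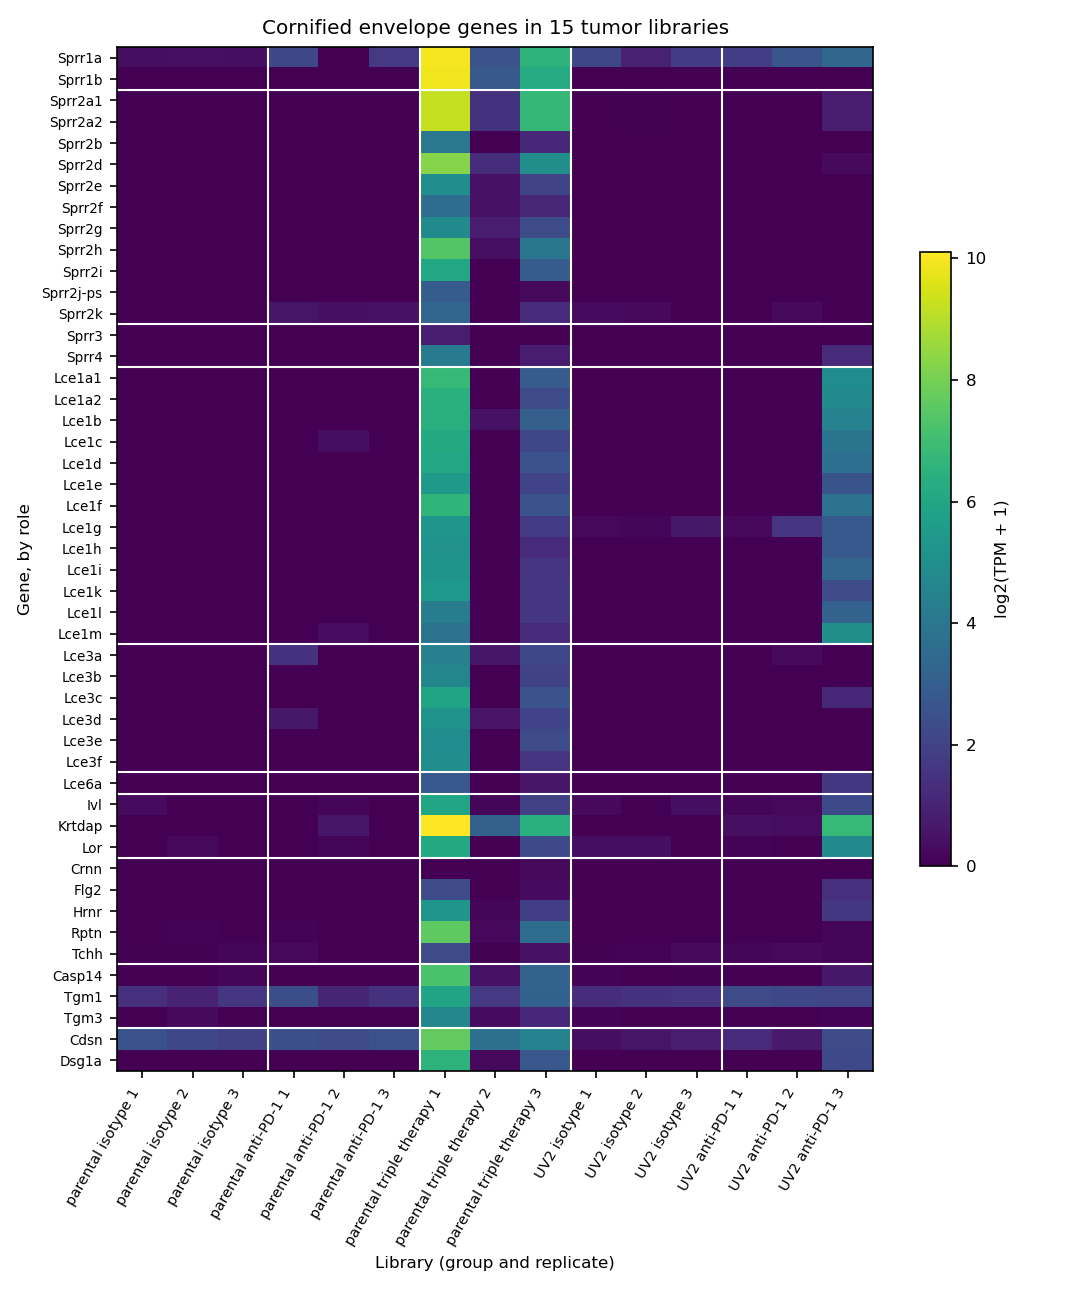
Level of each of the 48 cornified envelope genes (rows, grouped by role) in the 15 libraries (columns, white lines between groups), as log2(TPM + 1) in color. Triple therapy replicates 1 and 3 have 47 members above 0, and the color of the Lce1 rows in UV2 anti-PD-1 replicate 3 is brighter than in triple therapy replicate 3 for all 13 genes.

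Members with many relatives in the genome carry an uncertainty of their own. RSEM divides reads that fit several genes between them, and annotated transcripts of Lce1 genes shared up to 25.4% of their 50-base stretches with other members, those of Lce3 genes 12.1% to 49.3%, and those of Sprr2 genes up to 96.5%. Sprr2a1 and Sprr2a2 had identical values in all 15 libraries and overlap in the annotation, and their promoter windows agree at 300 of 300 bases, so their levels cannot be separated. Sums over a family are less exposed to this than levels of single genes. The 2 Sprr1 genes, Lor, Ivl, Krtdap, the enzymes, the fused S100 genes and the corneodesmosome genes shared none of their 50-base stretches with other members.

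The Sprr genes, which encode short proline-rich bridges between envelope proteins, supplied the largest part of the members' total in the triple therapy libraries: 3810.0, 17.98 and 441 TPM in replicates 1, 2 and 3, or 56.5%, 42.3% and 67.3%. Sprr1b (chromosome 3, 92436809 to 92438789) was at 947, 5.99 and 73.4 TPM in triple therapy replicates 1, 2 and 3 and was listed at 0 in all 12 other libraries. No other member combined a value above 5 TPM in every triple therapy library with 0 everywhere else. Sprr1a (92483952 to 92485895) was at 1010, 4.99 and 91.5 TPM under triple therapy. Unlike its neighbour it was measured in nearly every tumor, at 0.31, 0.35 and 0.29 TPM in parental isotype libraries, 3.47, 0 and 2.17 under parental anti-PD-1, 3.49, 0.89 and 2.42 in UV2 isotype, and 2.62, 5.27 and 9.23 in UV2 anti-PD-1. The lowest triple therapy value of Sprr1a lay above all 6 parental values without it but below UV2 anti-PD-1 replicates 2 and 3.

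The 11 Sprr2 genes summed to 1836, 7.0 and 275 TPM in triple therapy replicates 1, 2 and 3. They were at 0 in every parental isotype library, at 0.35 to 0.49 TPM under parental anti-PD-1, all of it Sprr2k, and at 0.04 to 1.65 TPM in UV2 tumors. Sprr2a1 and Sprr2a2 were each given as 599, 1.81 and 106 TPM under triple therapy, 0.73 TPM in UV2 anti-PD-1 replicate 3 and at most 0.05 TPM in any other library. Sprr2a1 and Sprr2a2 differed least between triple therapy replicates 1 and 3, with a ratio of 5.63, whereas the Sprr2 median was 9.77 and the median over all members 13.0. Sprr2d was at 305, 1.47 and 30.5 TPM and Sprr2h at 169, 0.33 and 14.7 TPM in the same 3 libraries. Of the less abundant pair outside these families, Sprr4 reached 16.6 TPM in triple therapy replicate 1 and 1.36 TPM in UV2 anti-PD-1 replicate 3, and Sprr3, known from internal stratified epithelia, had 0.74 TPM in triple therapy replicate 1 and 0 elsewhere.

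The 20 Lce genes encode small proteins that are added late to the envelope beneath the dead cell's surface. The 13 Lce1 genes summed to 728, 0.39 and 45.4 TPM in triple therapy replicates 1, 2 and 3 and to 185 TPM in UV2 anti-PD-1 replicate 3, against at most 1.93 TPM in the other libraries. The 6 Lce3 genes came to 198, 0.93 and 20.6 TPM under triple therapy and to 1.17 TPM in UV2 anti-PD-1 replicate 3, all of it Lce3c. Elsewhere they were at 2.31 TPM in parental anti-PD-1 replicate 1 (Lce3a 1.74 and Lce3d 0.57 TPM), above triple therapy replicate 2, at 0.21 TPM in UV2 anti-PD-1 replicate 2 and at 0 in the other 9 libraries. Lce1 genes therefore made up 78.1% of the Lce total in triple therapy replicate 1, 68.2% in replicate 3 and 98.3% in UV2 anti-PD-1 replicate 3. Triple therapy replicate 2 held only 1.32 TPM of Lce transcripts, from Lce1b, Lce3a and Lce3d.

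Among single Lce genes, Lce1a1 (92646535 to 92648307) was at 109, 0 and 6.48 TPM in triple therapy replicates 1, 2 and 3 and at 29.4 TPM in UV2 anti-PD-1 replicate 3. Lce1f was at 96.3, 0 and 5.08 TPM and at 12.7 TPM in the same 4 libraries, Lce1a2 at 84.6, 0 and 4.15 TPM and at 27.3 TPM. Lce1b was at 81.8, 0.39 and 7.39 TPM and at 21.5 TPM. These 4 genes, the most abundant Lce members under triple therapy, were listed at 0 in each of the other 11 libraries. Lce1c was at 69.1, 0 and 3.46 TPM in triple therapy replicates 1, 2 and 3 and at 13.9 TPM in UV2 anti-PD-1 replicate 3, with 0.31 TPM in parental anti-PD-1 replicate 2. Lce1d was at 64.2, 0 and 4.81 TPM and at 11.9 TPM, and Lce1e at 42.2, 0 and 3.10 TPM and at 5.25 TPM. Both were at 0 elsewhere, as were Lce1h, Lce1i and Lce1l. Lce1h was at 34.1, 0 and 1.34 TPM under triple therapy and at 5.84 TPM in UV2 anti-PD-1 replicate 3, Lce1i at 36.3, 0 and 1.84 TPM and at 8.80 TPM, and Lce1l at 17.9, 0 and 2.03 TPM and at 7.94 TPM.

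Lce1g and Lce1m departed from this order. Lce1g was at 39.1, 0 and 2.28 TPM under triple therapy, and it was the only Lce gene measured in all 6 UV2 libraries, at 0.15, 0.12 and 0.55 TPM under isotype and 0.15, 1.93 and 5.93 TPM under anti-PD-1, while every parental library outside triple therapy was at 0. Lce1m (93017810 to 93019060), the Lce1 gene farthest from the rest of its family and beyond the Lce3 genes, was at 12.7, 0 and 1.35 TPM under triple therapy and at 30.7 TPM in UV2 anti-PD-1 replicate 3. It was the only member with its highest level in that library. Lce3c, by contrast, was at 59.1, 0 and 5.06 TPM under triple therapy and at 1.17 TPM in UV2 anti-PD-1 replicate 3, and the other 5 Lce3 genes were at 0 there.

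Lor, Ivl and Krtdap are single-copy genes whose products mark maturing suprabasal keratinocytes. Krtdap (chromosome 7, 30787896 to 30791097), which encodes a small secreted protein of differentiating keratinocytes, was the most abundant member in triple therapy replicate 1 and in UV2 anti-PD-1 replicate 3. Its levels under triple therapy were 1104, 7.53 and 83.4 TPM. In UV2 anti-PD-1 replicates 1, 2 and 3 it was at 0.32, 0.26 and 108 TPM, in parental anti-PD-1 replicate 2 at 0.52 TPM, and in the remaining 8 libraries at 0. Lor (chromosome 3, 92080271 to 92083142), the main envelope protein of resting epidermis, was at 70.2, 0 and 3.67 TPM under triple therapy. It was at 0.07, 0 and 26.5 TPM in UV2 anti-PD-1, at 0.29, 0.31 and 0 TPM in UV2 isotype, at 0, 0.15 and 0 TPM in parental isotype and at 0, 0.12 and 0 TPM in parental anti-PD-1 libraries. Lor was thus listed at 0 in triple therapy replicate 2, and the triple therapy group overlapped every other group. Ivl (92570902 to 92573735), an early scaffold of the envelope, was at 61.4, 0.12 and 2.73 TPM under triple therapy and at 0.14, 0.17 and 3.87 TPM in UV2 anti-PD-1. Its values were 0.24, 0 and 0 TPM in parental isotype, 0, 0.11 and 0 TPM in parental anti-PD-1, and 0.20, 0 and 0.31 TPM in UV2 isotype libraries, so that replicate 2 of triple therapy was within the range of isotype-treated tumors.

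The fused S100 genes, which lie at the far end of the complex, split between the 2 kinds of library. Rptn was at 192, 0.17 and 10.99 TPM under triple therapy and at 0.09 TPM in UV2 anti-PD-1 replicate 3, a ratio of 2132 between triple therapy replicate 1 and that library, the highest among the 32 members above 0 in both. The 16 members at 0 in that library have no such ratio. Hrnr was at 37.1, 0.09 and 2.68 TPM under triple therapy and at 2.15 TPM in UV2 anti-PD-1 replicate 3. Flg2, a relative of filaggrin, was at 4.09, 0 and 0.24 TPM against 1.66 TPM in that library, which left it above triple therapy replicate 3. Tchh, better known from hair follicles, did not exceed 3.97 TPM in any library, and Crnn, known from internal stratified epithelia, was above 0 only in triple therapy replicate 3, at 0.16 TPM.

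The enzymes and the corneodesmosome genes included the members with a level in every tumor. Tgm1 (chromosome 14, 55700009 to 55713926), the transglutaminase anchored at the membrane, was at 58.9, 2.18 and 7.89 TPM under triple therapy. It was at 1.65, 1.03 and 2.06 TPM in parental isotype, 4.35, 1.05 and 1.76 TPM in parental anti-PD-1, 1.45, 1.75 and 1.87 TPM in UV2 isotype, and 4.03, 3.57 and 3.35 TPM in UV2 anti-PD-1 libraries. The triple therapy values lay above all parental isotype values, by a narrow margin for replicate 2, and overlapped those under anti-PD-1. Tgm3 (chromosome 2, 130012349 to 130050399), the transglutaminase of the cytosol, was at 24.6, 0.22 and 1.22 TPM under triple therapy. It was at 0, 0.19 and 0 TPM in parental isotype, at 0.06, 0 and 0 TPM in UV2 isotype, at 0, 0 and 0.06 TPM in UV2 anti-PD-1 libraries, and at 0 under parental anti-PD-1. Casp14 (chromosome 10, 78711991 to 78718294), a caspase of terminal keratinocyte differentiation, was at 147, 0.40 and 7.95 TPM under triple therapy and at 0, 0 and 0.57 TPM in UV2 anti-PD-1. Elsewhere Casp14 did not exceed 0.09 TPM, with 0, 0 and 0.09 TPM in parental isotype, 0 in parental anti-PD-1 and 0.06, 0 and 0.05 TPM in UV2 isotype libraries. Unlike Lor, Casp14 and Tgm3 were lower in UV2 anti-PD-1 replicate 3 than in triple therapy replicate 3.

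Cdsn (chromosome 17, 35552128 to 35557180) was at 202, 12.3 and 21.1 TPM under triple therapy, above all 12 other libraries. Its parental levels were 4.87, 3.47 and 2.86 TPM under isotype and 4.58, 3.94 and 4.90 TPM under anti-PD-1. In UV2 tumors it was at 0.29, 0.49 and 0.76 TPM under isotype and at 1.31, 0.67 and 4.11 TPM under anti-PD-1. Cdsn was thus the most abundant member in all 6 parental tumors outside triple therapy, and also in triple therapy replicate 2. Dsg1a (chromosome 18, 20310811 to 20343350), the desmosomal cadherin joined to the corneodesmosome, was at 91.1, 0.19 and 5.79 TPM under triple therapy, at 3.65 TPM in UV2 anti-PD-1 replicate 3 and at 0 in each of the other 11 libraries.

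**Figure D2:**
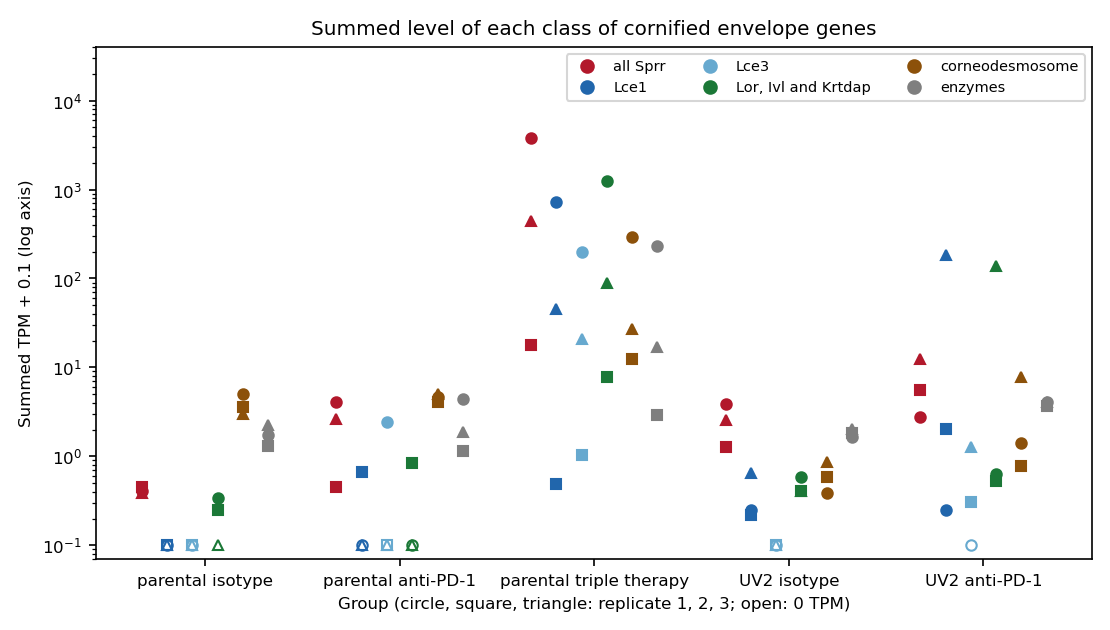
Summed TPM of 6 classes of cornified envelope genes (colors) in each library, on a log axis after adding 0.1, with replicates 1, 2 and 3 as circle, square and triangle and open symbols for sums of 0. The 3 triple therapy libraries are spread from 17.98 to 3810.0 TPM for Sprr genes, and in UV2 anti-PD-1 replicate 3 the Lce1 sum (185 TPM) stands above the Sprr sum (12.2 TPM).

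Triple therapy was compared with isotype and with anti-PD-1 in parental tumors to ask what the combined treatment did to these genes. The median difference over all 48 members, taken between group means of log2(TPM + 1), was 2.496 against isotype and 2.45 against anti-PD-1, where the medians over all 18555 genes above 0 in some library were 0.09 and 0.05. The 2 comparisons share the triple therapy libraries. With a pseudocount of 0.1 the members' medians were 4.55 and 4.48, and without triple therapy replicate 1 they were 1.07 and 1.01. All 3 triple therapy values lay above all 3 isotype values for 20 of 48 members, where this held for 12% of the genes above 0, and above all 3 anti-PD-1 values for 18 of 48, against 7.21%. A limma fit of log2(TPM + 1) was made for the 13592 genes with at least 1 TPM in at least 3 libraries, and 27 of the members passed that filter. Of these, 17 reached 1 TPM only in triple therapy replicates 1 and 3 and UV2 anti-PD-1 replicate 3. Sprr1b, Sprr2a1, Sprr2a2 and Sprr2d reached it only in the triple therapy libraries, and Krtdap only there and in UV2 anti-PD-1 replicate 3. Just 5 members, Lce1g, Lce3a, Sprr1a, Cdsn and Tgm1, reached 1 TPM in any of the other 11 libraries. The direction of the other tested members therefore follows in part from the filter.

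No member passed the threshold of an adjusted p of 0.05 (limma, Benjamini-Hochberg over all genes) in either comparison. Against isotype, 0 of 27 members were called and 0.0221% of all genes, and against anti-PD-1 0 of 27 and 0%. At an unadjusted p under 0.05, 21 of 27 members were higher than under isotype, where 10.8% of genes were, and 20 of 27 were higher than under anti-PD-1, where 8.32% were. Both counts run over members that passed the filter largely because they were high under triple therapy, and they support no direction. The smallest adjusted p of any member was that of Sprr1b, 0.104 against isotype and 0.194 against anti-PD-1. With a pseudocount of 0.1 Sprr1b passed the threshold in both comparisons (adjusted p = 0.0202 and 0.0189). Sprr1b reached 1 TPM only in the 3 triple therapy libraries, so it was tested solely through the group where it was high. Its p-values therefore support no direction. Sprr1b was listed at 0 in both control groups, as were Sprr2a1, Sprr2a2, Sprr2d, Dsg1a, Lce3c and most Lce1 genes, and no fold is given for these. Of the members measured in the controls, Sprr1a differed from isotype by 5.97 ± 1.29 (log2 difference ± SE, adjusted p = 0.266) and from anti-PD-1 by 5.09 ± 1.29 (adjusted p = 0.377). Cdsn differed by 3.07 ± 0.75 (adjusted p = 0.301) and 2.84 ± 0.75 (adjusted p = 0.377), and Tgm1 by 2.23 ± 0.75 (adjusted p = 0.339) and 1.94 ± 0.75 (adjusted p = 0.426). Krtdap, at 0 under isotype, differed from anti-PD-1 by 6.33 ± 1.65 (adjusted p = 0.377). The group means of Sprr1a, Cdsn and Tgm1 were 369, 78.5 and 23.0 TPM under triple therapy and 0.317, 3.73 and 1.58 TPM under isotype. Lor and Ivl differed from isotype by 2.73 ± 1.34 (adjusted p = 0.426) and 2.57 ± 1.05 (adjusted p = 0.356), with overlapping groups. Against anti-PD-1 the differences were 2.74 ± 1.34 for Lor, 2.62 ± 1.05 for Ivl, 2.63 ± 1.25 for Lce1c, 2.41 ± 0.91 for Hrnr and 1.90 ± 0.70 for Lce3a, with adjusted p-values of 0.415 to 0.507. The groups overlapped for Lor, Lce1c and Lce3a. Under anti-PD-1, Krtdap, Lor, Ivl, Lce1c and Hrnr were above 0 in replicate 2 only, at 0.52, 0.12, 0.11, 0.31 and 0.02 TPM. Lce3a was above 0 in replicate 1 only, at 1.74 TPM. Under isotype, Lor was above 0 in replicate 2 only and Ivl in replicate 1 only. These differences therefore depend on the pseudocount. For Sprr1a, Cdsn and Tgm1 triple therapy replicate 1 lay far above replicates 2 and 3.

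Leaving out triple therapy replicate 2, the library with the least of these transcripts, gave 8 members called in each comparison, of 23 tested: Sprr1a, Krtdap, Cdsn, Tgm1, Dsg1a, Hrnr, Lce3a and Lce3c. The adjusted p of Sprr1a was then 0.00268 against isotype and 0.00643 against anti-PD-1. Of the 8, Krtdap, Dsg1a, Hrnr and Lce3c passed the filter only through triple therapy replicates 1 and 3 and UV2 anti-PD-1 replicate 3. The count of called members therefore supports no direction. Of all genes, 1.76% and 1.12% were called in these fits. Sprr1b, Sprr2a1, Sprr2a2 and Sprr2d were not tested in them, since they reached 1 TPM in 2 of the remaining libraries only. Without triple therapy replicate 1 or replicate 3, 5 members were tested and 0 called. Leaving out UV2 anti-PD-1 replicate 3, which belongs to neither comparison but shares the fit, left 10 members tested and 0 called, with smallest adjusted p-values of 0.142 and 0.256, both of Krtdap.

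Within the triple therapy group the libraries were ordered alike for nearly all members. Replicate 1 lay above replicate 3 and replicate 3 above replicate 2 for 46 of 48 members, the exceptions being Sprr3 and Crnn. The ratio of replicate 1 to replicate 3 ran from 5.63 for Sprr2a1 to 33.2 for Sprr2j-ps. Class medians were 9.77 for Sprr2, 9.85 for Lce3, 12.0 for Sprr1, 17.1 for Lce1 and 19.1 for Lor, Ivl and Krtdap. The classes known from inflamed epidermis thus had lower median ratios than Lce1, though their ranges overlapped, at 5.63 to 33.2 for Sprr2 and 8.83 to 25.4 for Lce1, and this was not tested. Across the 48 genes the levels of replicates 1 and 3 had a Spearman correlation of 0.928, and those of replicates 1 and 2 one of 0.511. These are correlations across genes of 2 libraries, and zeros shared by many members enter them.

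UV2 anti-PD-1 replicate 3 held a different mixture. Lce1 genes were 52.2% of its members' total and Lor, Ivl and Krtdap 39.0%, while Sprr genes were 3.45%, against 10.8%, 18.3% and 56.5% in triple therapy replicate 1. The ratio of summed Sprr to summed Lce1 TPM was 0.066 in this library and 5.24, 46.1 and 9.72 in triple therapy replicates 1, 2 and 3. For 19 members UV2 anti-PD-1 replicate 3 lay above triple therapy replicate 3: all 13 Lce1 genes, Lce6a, Lor, Ivl, Krtdap, Sprr4 and Flg2. None of the Sprr1, Sprr2 or Lce3 genes was among them. The ratio of triple therapy replicate 1 to this library was 0.415 for Lce1m, 2.65 for Lor and 10.2 for Krtdap, but 109 for Sprr1a, 820 for Sprr2a1 and 1608 for Sprr2d. The ratios of Sprr2a1 and Sprr2d rest on 0.73 and 0.19 TPM in UV2 anti-PD-1 replicate 3, so their size is uncertain. Sprr1b was among the 15 members above 0 in triple therapy replicate 1 and at 0 in UV2 anti-PD-1 replicate 3. The Spearman correlation across the 48 members was 0.394 between these libraries and 0.225 with triple therapy replicate 3. With 1 library of this kind, its mixture has no replicate check.

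**Figure D3:**
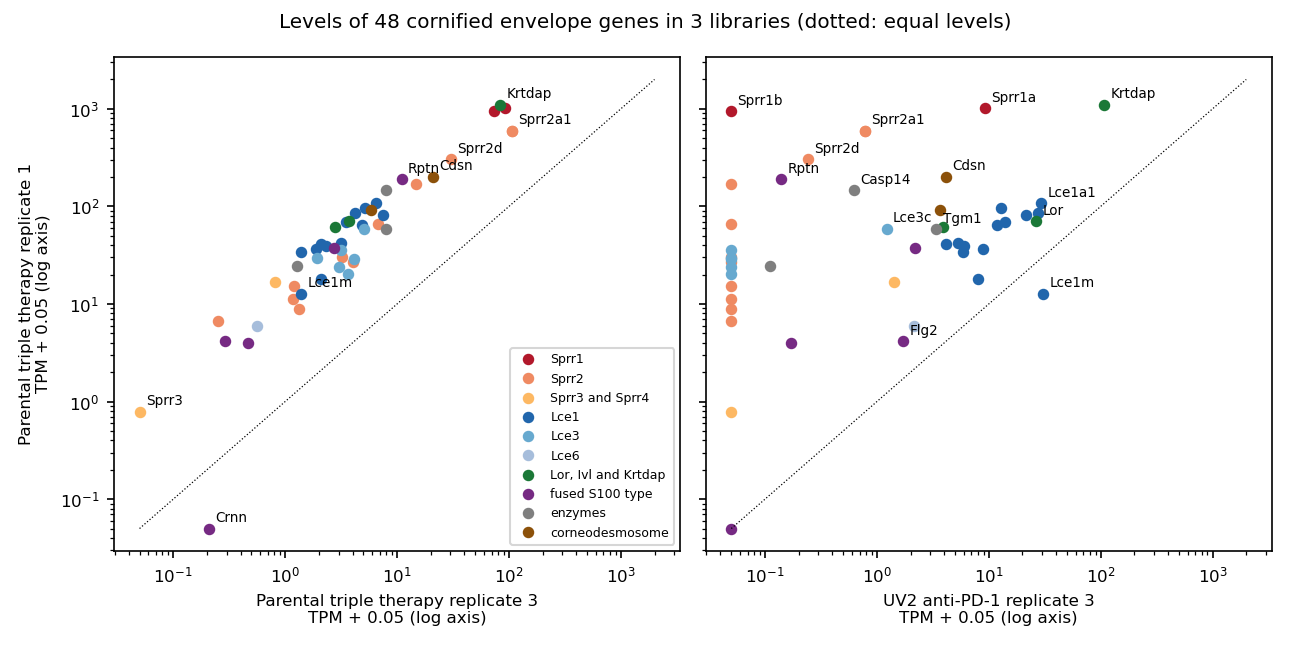
Level of each of the 48 members in parental triple therapy replicate 1 (vertical) against triple therapy replicate 3 (left panel) and UV2 anti-PD-1 replicate 3 (right panel), in TPM + 0.05 on log axes, colored by role, with a dotted line at equal levels. On the left the ratios of the 46 members above 0 in both libraries run from 5.63 to 33.2, and on the right Sprr genes lie far above the line while Lce1m lies below it.

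Position on chromosome 3 shows the division as blocks. Among the members the Sprr genes lie side by side, as do the Lce3 genes, and the Lce1 genes do so except for Lce1m, which lies beyond the Lce3 genes.

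**Figure D4:**
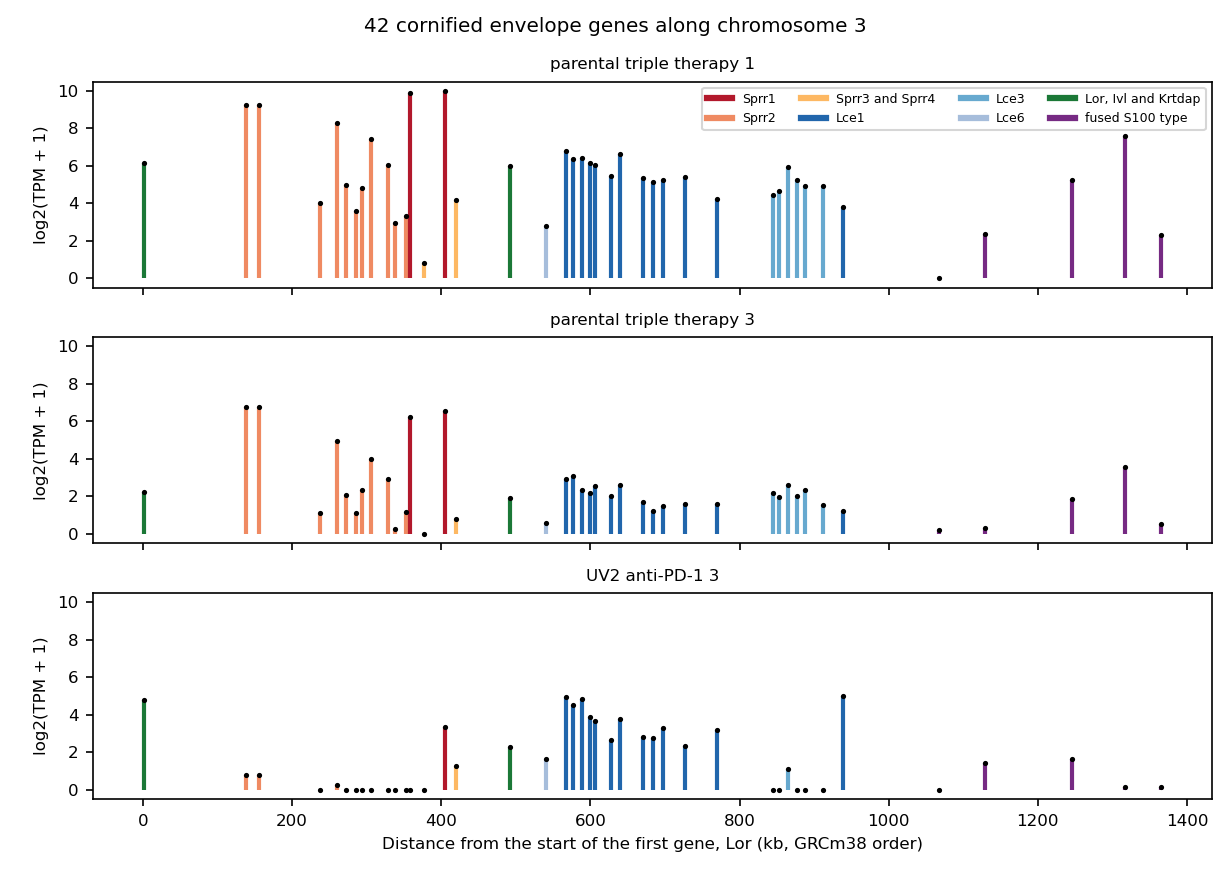
Level, as log2(TPM + 1), of the 42 members on chromosome 3 by distance in kb from the start of Lor, in triple therapy replicates 1 and 3 and UV2 anti-PD-1 replicate 3, colored by role. The Sprr2 block is tall in both triple therapy libraries and near 0 in UV2 anti-PD-1 replicate 3 (1.65 TPM in sum), where the Lce1 block stands out (185 TPM in sum).

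Keratin genes, which mark the layers of the epidermis, moved with these libraries, and their part in the results was not tested. The summed level of 6 basal keratinocyte markers was 14167, 306 and 1293 TPM in triple therapy replicates 1, 2 and 3 and 178 TPM in UV2 anti-PD-1 replicate 3, against 17.5 to 287 TPM in the other 11 libraries, where nearly all of it was the integrin gene Itga6, which other cells also make. The defining basal genes Krt14 and Krt5 did not exceed 0.63 and 0.13 TPM in those 11 libraries. They were at 11620.4 and 2258 TPM in triple therapy replicate 1, at 85.7 and 22.6 TPM in replicate 2, at 845 and 207 TPM in replicate 3, and at 69.5 and 50.2 TPM in UV2 anti-PD-1 replicate 3. The 4 suprabasal markers summed to 2074, 6.11 and 83.3 TPM under triple therapy, 190 TPM in UV2 anti-PD-1 replicate 3 and 1.60 to 3.06 TPM elsewhere. The 4 wound keratin genes Krt6a, Krt6b, Krt16 and Krt17 summed to 19582, 110 and 1311 TPM under triple therapy, 26.8 TPM in UV2 anti-PD-1 replicate 3 and 0.06 to 1.08 TPM elsewhere. Triple therapy replicate 2 thus had more Krt14 than UV2 anti-PD-1 replicate 3, with 0.39 TPM of Lce1 genes and Lor listed at 0.

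Set against a keratin, the envelope sums depended on which keratin was used. Summed Lce1 genes came to 6.26, 0.455 and 5.37 TPM per 100 TPM of Krt14 in triple therapy replicates 1, 2 and 3 and to 266 in UV2 anti-PD-1 replicate 3. Per 100 TPM of Krt10, a suprabasal keratin, the same sums were 108, 9.47 and 203 against 162, so that UV2 anti-PD-1 replicate 3 then lay between triple therapy replicates 1 and 3. Krt10 was itself at 1.37 to 2.85 TPM in the other 11 libraries and at only 4.12 TPM in triple therapy replicate 2. Values per Krt10 in that replicate are therefore uncertain. Sprr1 genes came to 16.8, 12.8 and 19.5 TPM per 100 TPM of Krt14 in the triple therapy libraries and 13.3 in UV2 anti-PD-1 replicate 3. Per 100 TPM of Krt5 they were 86.7, 48.7 and 79.5 against 18.4, per Krt10 291, 267 and 737 against 8.05, and per Krt6a 32.3, 26.8 and 39.3 against 278, so the library was close to the triple therapy group for Krt14 alone among these 4 keratins. Lor, Ivl and Krtdap together came to 10.6, 8.93 and 10.6 TPM per 100 TPM of Krt14 in triple therapy and 199 in UV2 anti-PD-1 replicate 3, but to 184, 186 and 401 against 121 per 100 TPM of Krt10, where the order was the opposite. The keratin Krt77, known from differentiated epidermis, was at 34.1 TPM in UV2 anti-PD-1 replicate 3, 0.91 TPM in triple therapy replicate 1 and 0 in all 13 other libraries, while Krt6b was at 0.51 TPM in the former and 6389 TPM in the latter. Between triple therapy replicates 1 and 3 the ratio was 13.8 for Krt14, 14.4 for Krt6a, 23.0 for Krt1 and 30.0 for Krt10.

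**Figure D5:**
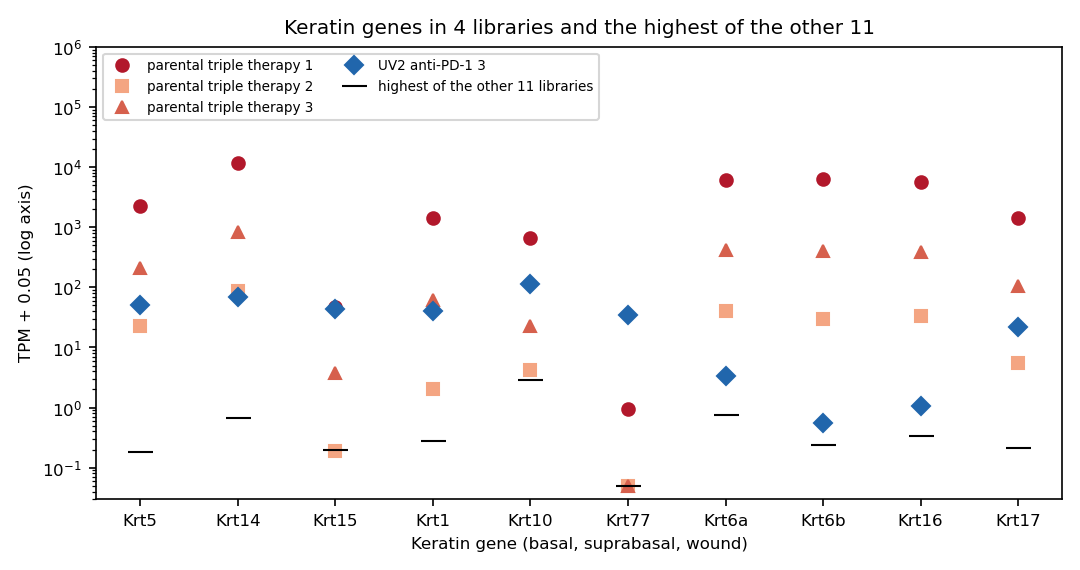
TPM + 0.05 (log axis) of 10 keratin genes in the 3 parental triple therapy libraries and UV2 anti-PD-1 replicate 3, with a bar at the highest of the other 11 libraries. The wound keratins Krt6a, Krt6b and Krt16 stand at 29.7 TPM or more in each triple therapy library and at 3.32 TPM or less in UV2 anti-PD-1 replicate 3, and Krt77 is high only in the latter (34.1 TPM).

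Markers of other cells were measured beside the members, and their part in the results was not tested either. The 10 markers of hair shaft and inner root sheath, layers known to make Tchh, did not sum to more than 0.29 TPM in any library, and 4 of them were at 0 throughout. Among 6 sebaceous gland markers, the summed level was 214, 43.7 and 58.7 TPM under triple therapy, 73.3 TPM in UV2 anti-PD-1 replicate 3 and 29.5 to 54.9 TPM elsewhere. Soat1, which other cells also make, was most of it outside triple therapy replicate 1, at 28.9 to 54.6 TPM. In triple therapy replicate 1 Soat1 was at 65.6 TPM and Krt79, a keratin of the sebaceous duct, at 122 TPM, with Elovl3 at 15.2 and Awat1 at 8.70 TPM. Krt79 was also at 8.27 TPM in triple therapy replicate 3 and 17.0 TPM in UV2 anti-PD-1 replicate 3, and did not exceed 0.14 TPM in the 12 remaining libraries. Fibroblast markers summed to 27317, 5989 and 11942 TPM under triple therapy, 2125 TPM in UV2 anti-PD-1 replicate 3 and 1675 to 10733 TPM elsewhere. Neutrophil markers, among them S100a8 and S100a9, which keratinocytes of inflamed epidermis also make, summed to 3251, 105 and 457 TPM under triple therapy, 34.9 TPM in UV2 anti-PD-1 replicate 3 and 9.70 to 200 TPM elsewhere. The 7 melanocyte and melanoma markers summed to 8.2 to 16.7 TPM in 14 libraries, most of it Mitf, and to 35.4 TPM in triple therapy replicate 1. Outside that library Tyrp1, Pmel and Mlana did not exceed 0.86, 0.88 and 1.6 TPM, so the sum is a weak check of the labelled tumor type. Mitf was at 5.28 to 14.2 TPM and Tyr at 1.49 to 4.57 TPM, while Sox10 was at most 0.41 TPM outside triple therapy replicate 1, which had 3.89 TPM, and Dct was at 0 in 11 libraries.

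Anti-PD-1 was compared with isotype in each line to ask what the checkpoint antibody alone did. In parental tumors 0 of 27 tested members were called and 0% of all genes, and the members' median difference was 0, against 0.04 over the genes above 0. At an unadjusted p under 0.05, 0 members passed, where 0.611% of genes did. Sprr2k, at 0.49, 0.35 and 0.39 TPM against 0 in each isotype library, was the 1 member whose groups did not overlap, of 2.55% of genes above 0, and was named after its values were seen. In UV2 tumors 0 of 27 members were called, against 0.0147% of genes, and 0 passed an unadjusted p of 0.05, where 9.16% of genes did. The members' median difference was 0.39, against -0.03 over the genes above 0. Krtdap and Tgm1 had all 3 anti-PD-1 values above all 3 isotype values, of 5.36% of genes above 0. Lor differed by 1.37 ± 1.34 (adjusted p = 0.662) and Sprr1a by 1.00 ± 1.29 (adjusted p = 0.726), with means of 8.85 and 5.71 TPM under anti-PD-1 and 0.2 and 2.27 TPM under isotype. Lce1m, listed at 0 under isotype and at 0, 0 and 30.7 TPM under anti-PD-1, had an adjusted p of 0.589, and Krtdap, at 0 under isotype, one of 0.584. The means of Lor, Lce1m and Krtdap rest on replicate 3: without it the members in UV2 anti-PD-1 tumors stood at 8.79 and 12.5 TPM in sum, 0 of 10 tested members were called, Lor stood at 0.07 and 0 TPM, and Krtdap at 0.32 and 0.26 TPM. The difference between the lines in the anti-PD-1 response called 0 members and 0% of genes, with a smallest adjusted p of 0.800 among members, and 0 members against 2.97% of genes at an unadjusted p under 0.05.

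The tumor lines were compared under the same antibody to ask how tumors of the UVB-derived line differ. Under isotype 0 of 27 members were called, against 1.29% of genes, and the members' median difference was 0, as over the genes above 0. Sprr1a, Lce1g, Sprr2a1 and Sprr2a2 had all UV2 values above all parental values, of 9.06% of genes above 0, and Cdsn all below, of 7.25%. These genes were named after their values were seen. The Lce1g and Sprr2a levels involved were at most 0.55 TPM, and Sprr1a was at 0.89 to 3.49 TPM against 0.29 to 0.35 TPM. Cdsn had a mean of 0.513 TPM in UV2 and 3.73 TPM in parental isotype tumors, a log2 difference of -1.63 ± 0.75 (limma, adjusted p = 0.276, unadjusted p = 0.0482), and it was the only member under an unadjusted p of 0.05, where 7.45% of genes were lower. In a fit of the 2 groups alone the SE was 0.27 and the adjusted p 0.0518, and with library weights, under which 3704 genes were called, the difference was -1.997 (adjusted p = 0.00425). The corneodesmosin gene was thus lower in 3 of 3 UV2 isotype libraries than in any parental one, without passing the threshold. Such a gene among 48 members, or 27 tested ones, is no more than the shares over all genes, and no difference between the lines is read from it. Under anti-PD-1 0 of 27 members were called, where 26.4% of all genes were, against 0.0668% without UV2 anti-PD-1 replicate 3. An unadjusted p under 0.05 was reached by 0 members and 45.1% of genes. Krtdap differed by 2.30 ± 1.65 (adjusted p = 0.284), Lor by 1.57 ± 1.34 (adjusted p = 0.371), Lce1m by 1.55 ± 1.13 (adjusted p = 0.290) and Sprr1a by 1.34 ± 1.29 (adjusted p = 0.427). Without UV2 anti-PD-1 replicate 3 the difference of Krtdap was 0.17 (adjusted p = 0.940). Cdsn differed by -1.01 ± 0.75 (adjusted p = 0.299) and by -1.47 ± 0.82 without that library (adjusted p = 0.237). Lce1g, Ivl, Sprr2a1 and Sprr2a2 were higher in all UV2 than in all parental anti-PD-1 libraries, of 14.3% of genes, and Sprr2k lower, of 26.1%. Among 48 members these counts do not exceed the shares over all genes, and no difference between the lines is read from them. Sprr2a1 and Sprr2a2 share the same values, at 0.02, 0.01 and 0.73 TPM against 0. The lowest UV2 value of Ivl was 0.14 TPM, against at most 0.11 TPM. The members' median was 0.33, against -0.04 over the genes above 0.

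Other genes of the same program were read in lists, for the triple therapy comparisons. Of the 61 list genes tested, 24 passed the filter only through triple therapy libraries and UV2 anti-PD-1 replicate 3, so the counts of higher genes given here, like those of the members, support no direction. Among 18 other late differentiation genes, 10 were tested, 0 were called against isotype or anti-PD-1, and all 10 had an unadjusted p under 0.05 in the higher direction in both, where 10.8% and 8.32% of genes did. Fabp5, a fatty acid carrier, was at 4599, 279 and 620 TPM in triple therapy replicates 1, 2 and 3, and Sfn, an epithelial 14-3-3 protein, at 1140, 13.4 and 93.8 TPM. The calmodulin-like gene Calm4 was at 1056, 2.66 and 82.7 TPM, and the secreted protein gene Dmkn at 1045, 7.83 and 78.2 TPM. Calm4 and Dmkn stood at 86.8 and 78.6 TPM in UV2 anti-PD-1 replicate 3, near their levels in triple therapy replicate 3. Of 15 desmosome, plakin and adhesion genes, 12 were tested and 0 called, with 10 and 11 higher at an unadjusted p under 0.05 against isotype and anti-PD-1. The desmosomal genes Perp and Dsp were at 1007, 6.89 and 81.5 TPM and at 204, 1.06 and 13.1 TPM under triple therapy, and Pkp1 and Jup, which tumors outside triple therapy also held at 3.52 to 33.0 TPM, at 294, 14.8 and 41.7 TPM and at 216, 5.15 and 21.8 TPM.

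The proteases that shed the dead cells, with their inhibitors, had 14 genes present, 11 tested and 0 called. At an unadjusted p under 0.05, 10 were higher than under isotype and 8 than under anti-PD-1 (all genes 10.8% and 8.32%), and 6 of the 11 were among those 24. The kallikreins Klk6 and Klk7 were at 436, 0.38 and 35.2 TPM and at 406, 0.67 and 38.0 TPM under triple therapy, and Asprv1, the protease that processes profilaggrin, at 496, 1.69 and 39.5 TPM. Ctsl, a lysosomal protease of many cells, was at 338 TPM or more in every library. Of 14 other genes of the epidermal differentiation complex, 9 were tested, 0 called, and 6 and 7 were higher at an unadjusted p under 0.05. S100a8 and S100a9 were at 1618, 46.4 and 220.2 TPM and at 1536, 49.8 and 216 TPM in triple therapy replicates 1, 2 and 3. S100a14 was at 287, 3.12 and 25.2 TPM under triple therapy, and S100a16, at 285, 24.5 and 52.8 TPM, was also at 9.03 to 114 TPM outside it. Of 15 lipid barrier genes only 6 were tested, with 0 called and 4 higher in each comparison at an unadjusted p under 0.05. Elovl1 and Ugcg, enzymes of lipid synthesis that many cells make, had the highest triple therapy means of that list and were at 76.7 and 31.5 TPM or more in every library. Elovl4, which lengthens the fatty acids of skin ceramides, was at 124, 2.41 and 8.72 TPM, and Sdr9c7 was at 30.9, 0 and 2.51 TPM in triple therapy replicates 1, 2 and 3, and Sdr9c7 was not tested. Of 16 regulators of keratinocyte differentiation, 13 were tested, 0 called, and 5 and 3 were higher at an unadjusted p under 0.05. The factors Klf4 and Hopx were at 24.01 TPM or more in every library. Of the 4 wound keratin genes, Krt6a, Krt6b and Krt16 passed the threshold against isotype (adjusted p = 0.0462 for each) and 0 did against anti-PD-1. Outside triple therapy and UV2 anti-PD-1 replicate 3, Krt6a, Krt6b and Krt16 did not exceed 0.71, 0.19 and 0.29 TPM. They were thus tested only through those libraries, and their calls support no direction. Without UV2 anti-PD-1 replicate 3 in the fit 0 genes of any kind passed in either comparison.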

How the data were processed

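Bulk RNA of 15 mouse melanoma grafts was measured by RNA-seq. The authors deposited 1 table of TPM values, whose name credits RSEM; per the submitters' processing notes the tools were Bowtie2 and RSEM and the builds mm10 and GRCm38, with no versions. Each column sums to about 1000000, read depth is unknown, and 0 columns were left unused. Of 23420 symbols, 4865 were 0 in every library, 2 were repeated, 27 had the form of a date and 21751, with all 48 members, matched the GENCODE M21 annotation of GRCm38, which gave positions.

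Groups came from the sample titles and characteristics. A gene was tested if 3 or more libraries reached 1 TPM, which kept 13592 genes. Their log2(TPM + 1) was modelled in R 4.3.3 by limma 3.58.1 (lmFit, contrasts.fit, eBayes with trend and robust), with 1 coefficient per group, 10 residual degrees of freedom, 7 two-sided comparisons and Benjamini-Hochberg adjustment over all genes. An adjusted p under 0.05 was called. The script was tested on simulated data. Log2 differences depend on the pseudocount and understate changes of low genes.

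The members, the marker and pathway lists and the tests were chosen with earlier results of these data known. Levels in single libraries are given for Lor, Ivl, Krtdap, Tgm1, Tgm3, Casp14, Cdsn and Dsg1a, the 4 Sprr and 4 Lce genes highest under triple therapy, any member called, and any member at 5 TPM or more outside triple therapy. Differences with SE are given where the higher mean reached 5 TPM and the log2 difference 1, and only for members not listed at 0 throughout the lower group. Sprr2d, Sprr2h, Sprr2k, Sprr3, Sprr4, Lce3c, Rptn, Hrnr, Flg2, Tchh, Crnn and Cdsn between lines were added after their values were seen. For each pathway list up to 4 genes with the highest triple therapy mean are named. RefSeq promoters (GRCm38.p6) matched 44 members and were searched for 6 motifs.

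Alternatives were a pseudocount of 0.1, no filter, a TPM minimum of 5, a block for the replicate number, quantile normalization, median-of-ratios scaling, a fit of only the compared groups, library weights and leaving out each library.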

Additional observations from a re-analysis of the deposited data

How the results depend on the processing

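The count of called members was 0 in all 7 comparisons. It was again 0 in each of them without a filter, with a TPM minimum of 5, under median-of-ratios scaling, quantile normalization, the compared groups alone and the replicate block. A pseudocount of 0.1 called 1 member, Sprr1b, against isotype (adjusted p = 0.0202) and 1, again Sprr1b, against anti-PD-1 (adjusted p = 0.0189). Sprr1b passed the filter only through the triple therapy libraries, so these calls support no direction. Library weights called 27 members for triple therapy against isotype, and 26 with anti-PD-1 as the control, where 7576 and 4527 of 13592 genes were called, and 1 member (Cdsn, lower) in UV2 against parental under isotype and 2 (Cdsn, lower, and Lce1g, higher) under anti-PD-1, where 3704 and 9262 genes were called. The cause of these differences was not tested. Leaving out 1 library at a time gave 0 to 8 called members in both triple therapy comparisons, with 8 only without triple therapy replicate 2, and 0 in the other 5 comparisons. Without UV2 anti-PD-1 replicate 3, an alternative added after the data were seen, the triple therapy comparisons called 0 of 10 tested members. The fit with the replicate block called 0 members in every comparison and changed no call. The labels do not say that replicate numbers pair libraries. Of 30 same-numbered pairs, 10 had correlated deviations over 0.1 (r from -0.54 to 0.47). With no count for differently numbered pairs beside it, this cannot decide whether libraries were paired. Over 778 values of 68 fold changes under these alternatives, 0 reversed, and 52 of the 68 belong to the triple therapy comparisons. All 68 were log2 differences of at least 1 in size, many of members listed at 0 in the controls. A reversal was therefore hardly possible, and the count is no sign of stability. Without triple therapy replicate 2 or 3 the members' median difference from isotype was 3.59 or 2.72, and under median-of-ratios scaling 2.39. Depth is unknown, so a value of 0 cannot be told from a low level.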
